A study of Mus musculus with 2 samples.

Results

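The 37 genes described here belong to the Notch pathway and were chosen by name. They comprise receptors, ligands, sugar and cleavage enzymes, regulators of endocytosis and ubiquitin, nuclear partners, and the Hes and Hey genes. All 37 were found in the RefSeq gene table, among 21887 protein-coding genes placed on the chromosomes. Binding of the vitamin D receptor (VDR) was mapped by ChIP-seq, in which DNA pulled down with the protein is sequenced, in mouse left ventricle at stage E16.5. Mothers received either a normal diet or a diet deficient in vitamin D. There was 1 library for each diet, with no replicate, so no test was run and every difference below is between 2 libraries. The labels give no strain, no sex, and no number of mothers or embryos. Peak lists measure no expression, so the labelled tissue could not be checked against marker genes.

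Notch receptors are cut when a ligand on a neighbouring cell, of the Delta-like or Jagged type, binds them. The freed intracellular part enters the nucleus, joins RBPJ and a Mastermind-like protein on DNA, and turns on genes of repressors such as Hes1 and Hey2. In the heart the pathway is known for its part in trabeculation and compaction of the ventricle wall, in valve formation and in the coronary vessels. VDR is a nuclear receptor that binds DNA with RXR, typically at paired copies of a sequence like AGGTCA.

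A gene was counted as having a peak when the summit, the highest point of a deposited peak, lay inside its RefSeq span or within 10 kb of either end. Coordinates are those of mm10. The height of a peak is given as its summit pileup, the number of sequenced fragments covering the summit, worked out from the deposited fold enrichment and p-value. The genome-wide background was 2.65 fragments with the normal diet and 5.38 with the other, a ratio of 2.03. The lists hold 23456 and 37661 peaks. At the genome-wide background the lowest pileup listed was 11 fragments in the normal-diet library and 16 in the deficient-diet one. A site missing from a list may therefore be bound at a level under those limits.

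Adam17, Hes5 and Hes6 each had a deficient-diet summit within 41 bp of a start site in the promoter table. The 250 bases before these starts are shown because sequence and binding can be read together there. Each is given 5′ to 3′ on the strand of the gene from RefSeq (GRCm38.p6, the same build as mm10), ending at the base before the start, with the bases inside the deposited peak in capitals.
Adam17 promoter, minus strand, chr12:21373633-21373882: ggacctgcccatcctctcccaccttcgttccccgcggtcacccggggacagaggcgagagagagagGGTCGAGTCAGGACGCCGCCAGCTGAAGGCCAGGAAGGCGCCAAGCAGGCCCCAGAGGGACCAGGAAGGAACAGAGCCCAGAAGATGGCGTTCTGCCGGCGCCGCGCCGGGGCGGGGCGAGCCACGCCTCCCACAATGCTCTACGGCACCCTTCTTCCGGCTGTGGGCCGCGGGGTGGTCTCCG
Hes5 promoter, plus strand, chr4:154960673-154960922: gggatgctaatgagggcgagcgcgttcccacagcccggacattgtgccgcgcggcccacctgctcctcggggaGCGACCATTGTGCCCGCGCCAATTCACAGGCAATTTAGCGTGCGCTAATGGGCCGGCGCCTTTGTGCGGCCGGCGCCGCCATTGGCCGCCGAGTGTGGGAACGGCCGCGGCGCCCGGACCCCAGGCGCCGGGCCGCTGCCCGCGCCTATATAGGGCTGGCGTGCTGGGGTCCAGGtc
Hes6 promoter, minus strand, chr1:91413223-91413472: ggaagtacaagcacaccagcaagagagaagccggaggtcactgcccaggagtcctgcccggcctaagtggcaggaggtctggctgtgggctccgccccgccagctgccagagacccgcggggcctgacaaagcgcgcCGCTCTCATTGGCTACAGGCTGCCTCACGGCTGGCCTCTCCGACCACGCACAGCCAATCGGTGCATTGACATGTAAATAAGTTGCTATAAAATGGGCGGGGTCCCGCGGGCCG
In these windows 184 bases of Adam17, 175 bases of Hes5 and 113 bases of Hes6 were inside the peak. The Hes5 and Hes6 windows lie within the RefSeq spans of those genes, which begin further upstream. The RBPJ sequence TGGGAA began 82 bases before the Hes5 start, on the strand of the gene and inside the deficient-diet peak. A second TGGGAA, on the other strand, began 226 bases before that start and lay outside the peak. Hes6 held AGGTCA 216 bases before its start, outside the peak. The Adam17 window held neither sequence. By the deposited -log10 q, none of these promoter peaks was above the median of the deficient-diet list, 3.95. The Hes5 and Hes6 peaks had 3.95 each. The Adam17 peak had 2.98, a value reached by 86.7% of that list.

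All 4 receptors, all 5 ligands and all 5 nuclear partners had a peak in each list, where 40.7% of protein-coding genes did. Over all members, 31 of 37 genes (83.8%) had a normal-diet peak, against 49.8% of protein-coding genes. The same number, 31 (83.8%), had a deficient-diet peak, against 59.5% of protein-coding genes. Both lists had a peak at 27 members (73.0%), where the background was 40.7%. The normal-diet list alone reached Pofut1, Mib1, Hes1 and Hey2, and the deficient-diet list alone reached Aph1a, Numb, Mib2 and Hey1. Adam10 and Heyl had none in either list, so 2 members (5.41%) lacked a peak altogether, against 31.3% of protein-coding genes. The members were picked with earlier results of these data known, so these shares are a description.

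Long genes held a summit more often than short ones, and the median member span of 22.0 kb was above the 17.2 kb of all protein-coding genes. The members were therefore set beside genes in the same class of span. Among the 13 members under 10 kb, 84.6% had a normal-diet and 92.3% a deficient-diet peak, where all such genes had 39.1% and 47.8%; 76.9% had both, against 30.6%. Among the 16 members of 10 to 50 kb the shares were 87.5% and 81.2%, against 51.0% and 61.1%, and 75.0% had both, against 40.8%. Among the 8 members of 50 kb or more they were 75.0% in each list, against 65.0% and 75.3%, and 62.5% had both, against 56.6%. Members thus stood above the background in the short and middle classes, while the long members were closer to it. The windows of members touched a mean of 1.03 other protein-coding genes, against 1.08 for all such genes, and 29.7% against 38.1% touched none. Counting each summit for its nearest protein-coding gene alone left 28 members with a normal-diet peak, where the background was 40.6%, and 26 with a deficient-diet peak, where it was 50.3%. By that count 52 of 61 normal-diet and 72 of 94 deficient-diet summits remained at members.

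**Figure D1:**
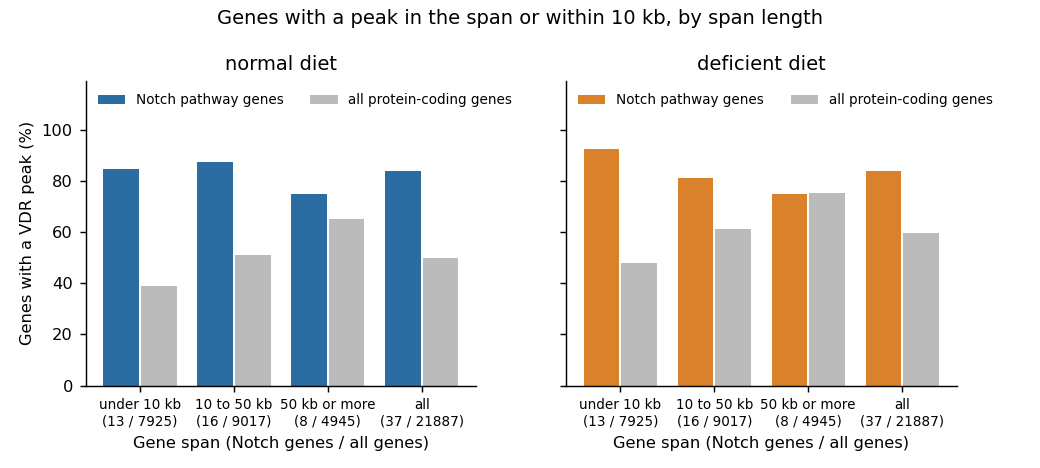
Percent of genes with a VDR peak in the span or within 10 kb (y axis, from 0) by class of span length (x axis, with the numbers of Notch pathway genes and of all protein-coding genes), 1 library per panel and no error bars. The Notch pathway bars stand above the grey background bars for spans under 10 kb and from 10 to 50 kb; at 50 kb or more they are 75.0% against 65.0% and 75.3%.

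Counted per length, the 61 normal-diet summits in the 2.68 Mb of member windows came to 22.7 per Mb (exact 95% Poisson interval 17.4 to 29.2), against 12.2 per Mb over the windows of all protein-coding genes. The 94 deficient-diet summits came to 35.0 per Mb (28.3 to 42.9), against 19.3. These intervals cover counting error only. Density differed widely by role. It was highest at the ligands, with 59.5 normal-diet and 92.0 deficient-diet summits per Mb, while the receptors had 48.0 and 69.1 and the sugar enzymes 43.2 and 72.0. The Hes and Hey genes had 34.4 and 64.5, the cleavage enzymes 12.9 and 35.6, and the regulators 12.8 and 28.1. Normal-diet density at the cleavage enzymes and regulators was thus near the 12.2 of all protein-coding windows. Density was lowest at the nuclear complex, with 10.1 and 6.41, below the 12.2 and 19.3 of all protein-coding windows. Its windows include the long genes Maml2 and Maml3. The nuclear complex was the only role with fewer deficient-diet than normal-diet summits, 7 against 11.

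More deficient-diet than normal-diet peaks were found at 20 of the 37 members (54.1%), against 38.4% of protein-coding genes, and fewer at 10 (27.0%), against 16.7%. Of the 35 members with any peak these are 57.1% and 28.6%. Over all protein-coding genes with a peak these shares were 55.9% and 24.3%, so the balance at Notch genes was near that of the whole lists. With lists cut to equal length the totals at members were 61 and 65 peaks, a deficient-to-normal ratio of 1.07. Over the windows of all protein-coding genes they were then 15707 and 15142, a ratio of 0.964.

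**Figure D2:**
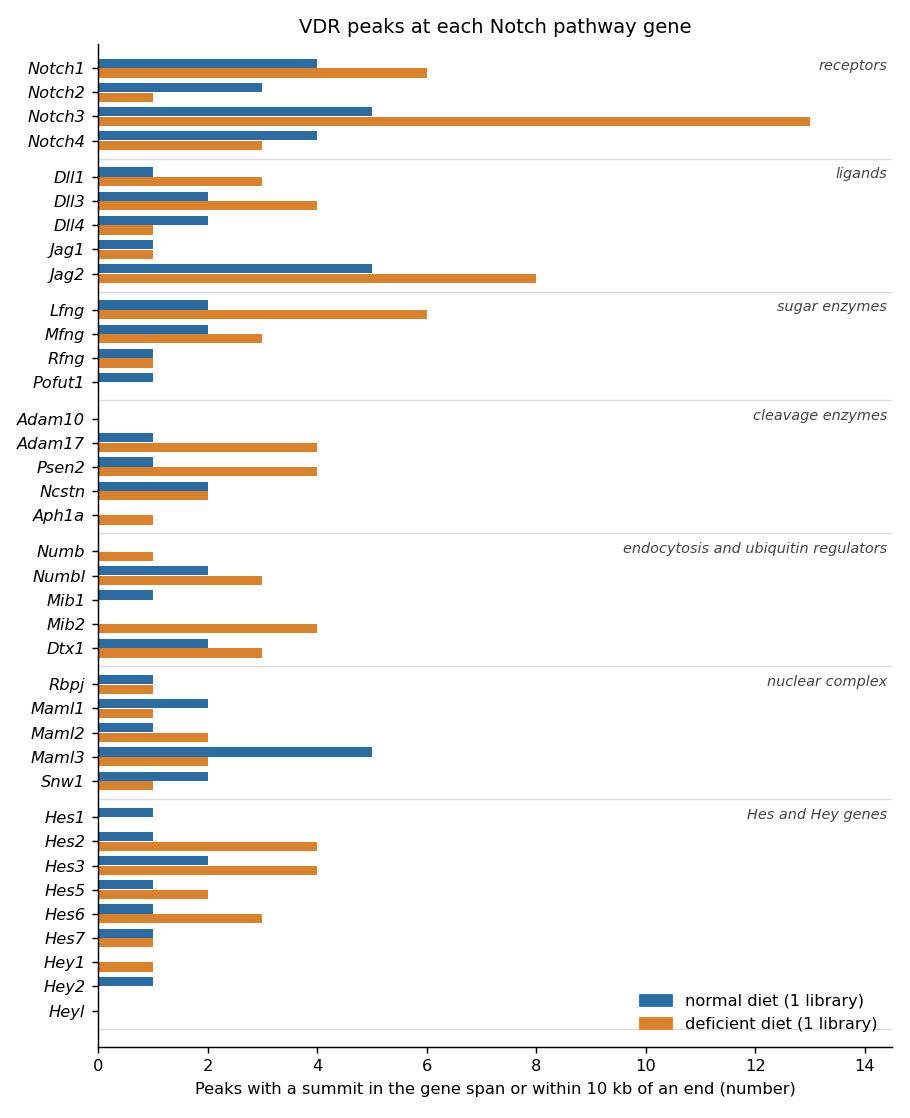
Number of VDR peaks (x axis) at each of the 37 Notch pathway genes (y axis, grouped by role), with 1 bar for each diet's library and no error bars. Notch3 has the longest deficient-diet bar, with 13 peaks, while its 5 normal-diet peaks equal those of Jag2 and Maml3. Adam10 and Heyl have no bar.

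The receptors, which carry the signal from the membrane to the nucleus, had 16 normal-diet and 23 deficient-diet peaks. Notch3, the receptor of vascular smooth muscle and pericytes, had the most deficient-diet peaks of any member. Its 5 normal-diet summits, all inside the gene, had pileups of 17, 15, 14, 13 and 17 fragments. Its 13 deficient-diet summits had pileups of 19 to 28 fragments, 10 of them inside the gene. Of the 9017 protein-coding genes of 10 to 50 kb, 0.122% had 13 or more deficient-diet peaks and 2.12% had 5 or more normal-diet peaks. Notch3 was singled out after its values were seen.

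Peaks overlapped between the lists at 2 sites inside Notch3. On chromosome 17, the normal-diet peak from 32122433 to 32122624 had a pileup of 17 and overlapped the deficient-diet peak from 32122207 to 32122484, with a pileup of 22. This site lies 1707 bp inside the 3′ end and also within the span of Gm38585. The second pair, 7551 bp from the start in the normal-diet list, ran from 32159256 to 32159460 with a pileup of 17. Its partner, from 32159290 to 32159690, had a pileup of 24 over a local background of 8.73 fragments. The highest deficient-diet peak of the gene, from 32165631 to 32165845, lay 1195 bp from the start with a pileup of 28 and a -log10 q of 7.59, and the nearest normal-diet summit was 6356 bp away.

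At Notch1, a receptor of endocardium and endothelium, pileups were 17, 15, 15 and 14 fragments under the normal diet, against 21, 21, 25, 33, 21 and 21 fragments. None of these 10 peaks overlapped across the lists. The peak with 33 fragments, on chromosome 2 from 26473911 to 26474178, lay 29812 bp into the gene and had a -log10 q of 8.50, a value reached by 2.30% of the deficient-diet list. A normal-diet peak with 14 fragments lay 683 bp before the start, within Gm35978, and a deficient-diet peak with 21 fragments lay 688 bp inside the 3′ end, within 0610009E02Rik. Notch2 had normal-diet pileups of 16, 14 and 14 and a single deficient-diet peak with 19. Notch4, an endothelial receptor, had pileups of 17, 16, 18 and 15 against 22, 20 and 23. Neither Notch2 nor Notch4 had an overlapping pair.

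**Figure D3:**
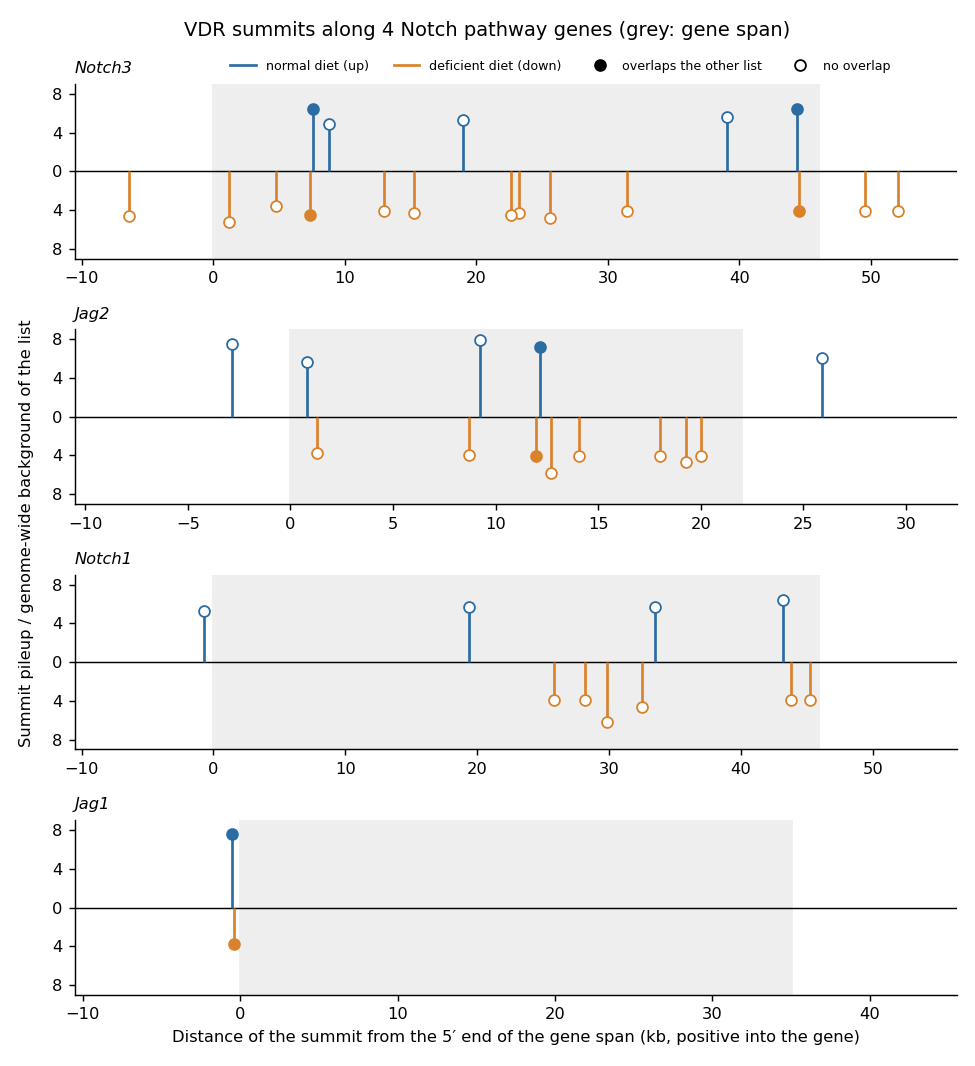
Summits along Notch3, Jag2, Notch1 and Jag1: distance from the 5′ end of the span in kb (x axis) against pileup over the genome-wide background of the same list (y axis, normal diet upward, deficient diet downward). Filled points mark peaks that overlap the other list: 2 pairs at Notch3, 1 at Jag2, 1 at Jag1 and none at Notch1.

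Among the ligands, the only Jag1 peak of each list overlapped the other. Jag1 is the Jagged ligand of endocardium, smooth muscle and outflow tract. Both peaks lay just before the start, with a pileup of 20 fragments in each library. The normal-diet peak, on chromosome 2 from 137116796 to 137117225, had its summit 545 bp upstream and a -log10 q of 7.80. The deficient-diet peak, from 137116897 to 137117058, had its summit 394 bp upstream and a -log10 q of 3.55. Divided by the genome-wide background of the same library, the pileups were 7.54 (normal diet) and 3.71. Within its own list, the first -log10 q was reached by 7.41% of peaks and the second by 73.9%. The libraries differ in depth and length of list, so these values are not a measured change.

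Jag2, a Jagged ligand, held the member peak with the highest -log10 q of each list. Its normal-diet pileups were 16, 19, 21, 15 and 20 fragments, and its deficient-diet pileups were 22, 25, 22, 22, 31, 22, 21 and 20. The normal-diet one, with 21 fragments, on chromosome 12 from 112920423 to 112920731, had a -log10 q of 8.67. The deficient-diet one, with 31 fragments, from 112917048 to 112917227, had a -log10 q of 9.60, which 1.59% of its list reached. These 2 peaks lie at different places in the gene, and neither overlapped a peak of the other list. The shared site ran from 112917343 to 112918312 with 19 normal-diet fragments, and from 112917710 to 112917879 with 22 deficient-diet fragments. Near the start, a normal-diet summit with 15 fragments lay 513 bp past a start site. A further normal-diet peak with a -log10 q of 7.80 lay 2868 bp outside the span and was nearer to Nudt14.

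The Delta-like ligands had 1 to 2 normal-diet and 1 to 4 deficient-diet peaks each. Dll4, the endothelial ligand, had a normal-diet peak with 21 fragments and a -log10 q of 6.77, 529 bp from its start on chromosome 2, from 119326084 to 119326448. The nearest deficient-diet summit was 8583 bp away, and its single Dll4 peak, with 22 fragments, lay 770 bp inside the 3′ end. Dll1 shared a site on chromosome 17, from 15368891 to 15369071 with 16 fragments and from 15368724 to 15368961 with 21. Dll3, known from somite formation, shared a site on chromosome 7, from 28298983 to 28299199 with 17 fragments and from 28298866 to 28299027 with 24. Its summits, 60 bp apart, were the closest of all pairs at members. Dll3 also had a normal-diet peak with 21 fragments 528 bp before its start, and a deficient-diet peak with 25 fragments 823 bp inside its 3′ end. Other deficient-diet summits counted for Dll3 lay inside the neighbouring genes Selenov and Timm50.

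The sugar enzymes modify the receptors: Pofut1 adds fucose, and the Fringe enzymes Lfng, Mfng and Rfng extend it. They had 6 normal-diet and 10 deficient-diet peaks and no overlapping pair (0 of 4 genes, against 22.6% of protein-coding genes). Lfng had normal-diet pileups of 14 and 12 and deficient-diet pileups of 24, 18, 27, 22, 21 and 18. Its highest peak, on chromosome 5 from 140612574 to 140612906, had a -log10 q of 6.37. A deficient-diet peak with 24 fragments lay 286 bp from the Lfng start, and a normal-diet peak with 14 fragments lay 909 bp beyond the 3′ end. At Rfng the deficient-diet peak with 21 fragments, 507 bp outside the gene, was inside the neighbouring gene Gps1. Some Lfng summits of each list lay inside Ttyh3. Mfng had 2 and 3 peaks, with both normal-diet summits and a deficient-diet one inside Card10, and the single Pofut1 peak lay inside Plagl2.

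The cleavage enzymes release the receptor's intracellular part: Adam10 and Adam17 cut outside the membrane, and Psen2, Ncstn and Aph1a are parts of gamma-secretase, which cuts within it. They had 4 normal-diet and 11 deficient-diet peaks, without an overlapping pair (0 of 5 genes, against 22.6% of protein-coding genes). At Ncstn, a normal-diet peak with 20 fragments and a -log10 q of 7.80 lay 9913 bp into the gene, on chromosome 1 from 172072733 to 172072947. Another, with 16 fragments, covered all 250 bases before the Ncstn start, with its summit 243 bp upstream and inside the span of Copa. These bases held AGGTCA 140 bases before the start. The deficient-diet list had a peak with 22 fragments 965 bp beyond the other end. At Adam17, whose promoter is shown above, the deficient-diet peak had its summit 33 bp before the start, a pileup of 23 and a local background of 7.76 fragments. The nearest normal-diet summit was 43309 bp away. Psen2 had 1 and 4 peaks, with a deficient-diet summit of 22 fragments 239 bp inside an end. Some deficient-diet summits counted for Adam17 lay inside the neighbouring gene Iah1. The only Aph1a peak, for the deficient diet, lay 6978 bp outside that gene and was nearer to Car14. Adam10, with a span of 101 kb, had none.

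The regulators had 5 normal-diet and 11 deficient-diet peaks, without an overlapping pair (0 of 5 genes, against 22.6% of protein-coding genes). Mib1 and Mib2 are ubiquitin ligases for the ligands, Numb and Numbl are endocytic adaptors that restrain Notch, and Dtx1 is a Deltex ubiquitin ligase. Mib1, the ligase needed for ventricle compaction, had a single normal-diet peak with 14 fragments 863 bp inside an end. Mib2 had 4 deficient-diet peaks of 21 to 23 fragments and none for the normal diet. Numbl had 2 and 3 peaks, among them a deficient-diet peak with 24 fragments 873 bp inside its 3′ end. The only Numb peak, with 22 fragments for the deficient diet, lay within Papln.

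In the nuclear complex, RBPJ binds DNA, the Mastermind-like proteins Maml1 to Maml3 recruit activators, and Snw1 is a cofactor. Each of these 5 genes had a peak in both lists, where 40.7% of protein-coding genes did. Rbpj, Maml2 and Maml3 have spans of 50 kb or more, a class in which 56.6% of genes did. Rbpj itself had 1 in each, with 18 and 26 fragments, at different places. The normal-diet peak covered 54 of the 250 bases before an internal Rbpj start, with its summit 354 bp upstream of it. Maml3 had normal-diet pileups of 13, 15, 15, 15 and 16 and 2 deficient-diet peaks of 22 fragments. Its shared site, on chromosome 3 from 51690095 to 51690359 and from 51690009 to 51690294, lay 2941 bp inside the 3′ end, with 13 and 22 fragments. Maml2 shared a site inside the gene on chromosome 9, from 13669474 to 13669840 with 16 fragments and from 13669244 to 13669512 with 21. Maml1 had a deficient-diet peak with 28 fragments and a -log10 q of 7.59, on chromosome 11 from 50263259 to 50263436. The shared site counted for Snw1, with 21 fragments in each list and a normal-diet -log10 q of 7.75, lay 9561 bp outside that gene, within Gm18983, on chromosome 12 from 87481750 to 87481966.

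The Hes and Hey genes encode transcription factors, mostly repressors, and several of them are direct Notch targets. They had 8 normal-diet and 15 deficient-diet peaks and no overlapping pair (0 of 9 genes, against 22.6% of protein-coding genes). Several of these summits lay inside neighbouring genes: Espn (Hes2), Gpr153 and Icmt (Hes3), Pank4 (Hes5), Per2 (Hes6) and Aloxe3 (Hes7). The Hey1 summit was also nearer to another gene. Hes5 had a normal-diet peak with 14 fragments 667 bp into the gene. In the deficient-diet list its peak with 21 fragments had the summit 31 bp before the start, in the window shown above. The Hes6 deficient-diet peak, with 21 fragments, had its summit 41 bp past the start shown. At Hes2 a normal-diet peak with 15 fragments and a deficient-diet peak with 22 lay 223 bp apart inside the gene without overlap. Hes3 had 2 and 4 peaks, Hes7 had 1 in each list, Hes1 and Hey2 had 1 for the normal diet, and Hey1 had 1 for the deficient diet. Hey2, a transcriptional repressor found in the compact ventricular wall, had its peak inside the gene, with 17 fragments. Hes1 had its own 5981 bp outside the span, with 15.

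Start sites were set apart after the values were seen, using the 29 members with a start in the promoter table. A normal-diet summit lay within 1 kb of a start at 10 of them (34.5%): Dll3, Dll4, Hes5, Jag1, Jag2, Maml3, Ncstn, Notch1, Psen2 and Rbpj. The background over protein-coding genes in that table was 17.1%. A deficient-diet summit lay there at 7 (24.1%): Adam17, Hes5, Hes6, Jag1, Jag2, Lfng and Rfng, with a background of 18.8%. Both lists had one at 3 (10.3%), Hes5, Jag1 and Jag2, where the background was 7.2%. Jag1 was the only one of these 3 whose peaks near the start overlapped. In the 250 bases before the 37 member starts listed, AGGTCA was found at 5, TGGGAA at 9 and the VDR-RXR direct repeat with 3 spacer bases (DR3) at 0, searching both strands. Over all 32851 promoters the shares were 14.0%, 21.6% and 0.222%. AGGTCA can be part of a DR3 match.

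Although members had peaks in both lists more often than the background, a smaller share of the peaks themselves overlapped between the lists. An overlap of 1 bp or more was found for 9 of the 61 normal-diet summits counted, 14.8% (exact 95% binomial interval 6.98 to 26.2%). The same share was 30.5% (29.8 to 31.2%) over the windows of all protein-coding genes. For the deficient diet it was 9 of 94, 9.57% (4.47 to 17.4%), against 19.4% (18.9 to 19.9%). In both lists the interval for Notch genes lay below that for all genes. Peaks at one locus are not independent, and the intervals cover counting error only. The 9 pairs lay at 8 genes, or 21.6% of members, where 22.6% of protein-coding genes had such a peak.

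The overlapping pairs at members were also offset. Their summits lay 60 to 346 bp apart, with a median of 134 bp, while the median over the windows of all protein-coding genes was 87 bp. Summits within 100 bp were found for 1 of the 61 normal-diet peaks (1.64%), at Dll3, against 17.0% over protein-coding windows. Among peaks with a -log10 q of 5 or more, 0 of the 19 normal-diet and 0 of the 18 deficient-diet member peaks had a partner of that strength, where protein-coding windows gave 15.0% and 14.1%. Of the 52 normal-diet peaks without a partner, 7 lay within 1 kb of a deficient-diet summit (13.5%, 5.59 to 25.8%), close to the 13.3% over protein-coding windows.

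**Figure D4:**
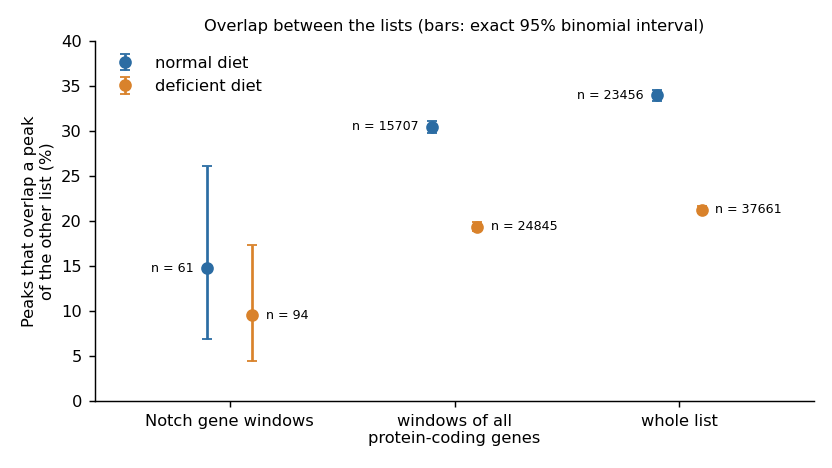
Percent of peaks overlapping the other list by 1 bp or more (y axis) in Notch gene windows, in windows of all protein-coding genes and in the whole list (x axis), with exact 95% binomial intervals and the number of peaks. Notch gene windows gave 14.8% and 9.57%, against 30.5% and 19.4% for all protein-coding genes.

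Median pileups at members, 16 normal-diet and 22 deficient-diet fragments, equalled those over protein-coding windows. They ranged from 12 to 21 and from 18 to 33 fragments, while protein-coding windows reached 348 and 323. Local background equalled the genome-wide value at 67.2% of the normal-diet member summits, against 52.1% over protein-coding windows, and at 67.0% of the deficient-diet ones, against 55.8%. Among such peaks 17.1% (7.15 to 32.1%) and 9.52% (3.58 to 19.6%) had a partner, against 32.4% (31.4 to 33.5%) and 17.5% (16.9 to 18.2%). Here, on 41 and 63 member peaks, the member shares were still lower, but the intervals of members and of all genes overlapped in both lists.

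Of 31 other Notch genes, such as co-repressors, further Deltex enzymes and Delta-like relatives, 22 (71.0%) had a normal-diet peak, 24 (77.4%) a deficient-diet peak and 18 (58.1%) both. The shares over protein-coding genes were the 49.8%, 59.5% and 40.7% given above. The 31 genes had 27.5 and 40.7 summits per Mb, against 12.2 and 19.3 over all protein-coding windows. Overlapping pairs lay at 13 of them (41.9%), against 22.6% of protein-coding genes and 21.6% of the 37 members. Dner, Crebbp, Dtx4, Nrarp, Spen and Furin were among the 13. Nrarp, a feedback target of Notch, had a shared site with 15 and 27 fragments. The highest shared pileups of this list, 27 and 44, were at Dtx4. Of 14 genes that act with Notch in the ventricle wall and cushions, 9 (64.3%) had a normal-diet peak, 9 (64.3%) a deficient-diet peak, against 49.8% and 59.5% of protein-coding genes. Peaks of both diets lay at 7 of the 14, where 40.7% of protein-coding genes had both. An overlapping pair lay at 2 (14.3%), Tbx2 and Nrg1, against 22.6%. By length, however, the 14 genes had 5.29 normal-diet and 12.5 deficient-diet summits per Mb, below the 12.2 and 19.3 over all protein-coding windows. Their windows, 2.64 Mb in all, include the long genes Erbb4 and Nrg1.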

How the data were processed

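VDR ChIP-seq peak lists, 1 per diet, were used as the authors deposited them. MACS2, SAMtools and mm10 are named in the submitters' processing notes; aligner, control and thresholds are not given in the sources used here. Each peak has the deposited fold enrichment (a ratio to local background) and the deposited -log10 p-value and -log10 q-value, per the file headers. In the normal-diet file the end and score are joined by a point and were split; 1 peak without a start was left out. Pileup k and background b were solved from fold = (k + 1)/(b + 1) and the Poisson p-value; no header states this form, and the whole-number solution reproduced -log10 p to within 0.000293. The code was tested on simulated data.

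Summits were placed against RefSeq spans of GRCm38.p6, and the promoter table gave strands and starts. Background shares were counted over protein-coding genes, whole and by span class. All members were counted. Single peaks are described for overlapping pairs, the 5 highest -log10 q in each list, summits within 1 kb of a span end, and the 3 members with most peaks in each list (Notch1 and Lfng tied in the deficient-diet one), with further pileups added after they were seen. Members and lists were chosen with earlier results of these data known. Python 3.11.15, pandas 2.3.3 and scipy 1.17.1 were used. Alternatives were a -log10 q of 5, windows of 0, 1 and 50 kb, equal list lengths, nearest genes, and 2 stricter definitions of overlap. The values of 1 gene of the further Notch list are not reported here.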

Additional observations from a re-analysis of the deposited data

How the results depend on the processing

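The 9 results were recomputed to give 58 values, of which 40 lay inside the 95% interval or, for counts, within 1.5 times, and 18 lay outside. At a -log10 q of 5 or more, by construction on fewer peaks, 13 members had a normal-diet peak (35.1%, against 24.5% of protein-coding genes). A deficient-diet peak was found at 12 (32.4%, against 25.0%), and both lists had a peak at 6 (16.2%, against 11.1%). There were then 19 and 18 peaks, 7.08 and 6.71 per Mb, with a partner for 0.0% in each list. Inside spans alone there were 39 normal-diet peaks. The 50 kb window held 140 and 209. Overlap of 50% of both peaks, and likewise summits within 100 bp, gave shares with a partner of 1.64% and 1.06%. Over protein-coding windows the shares were 19.7% and 12.5% by the first definition, and 17.0% and 10.7% by the second. For the deficient diet, equal list lengths gave 24.2 summits per Mb and 26 genes (70.3%, against 47.2% of protein-coding genes), and counting summits only for their nearest protein-coding gene gave 26.8 per Mb. With that count 28 and 26 members had a peak, where 40.6% and 50.3% of protein-coding genes did. No paired analysis was possible because a diet is represented by 1 library alone; leaving a library out would empty a group. Whether depth sets which sites are listed was not tested; median member pileups were 16 and 22 fragments.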
